A study of Mus musculus with 12 samples.

Results

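The suprachiasmatic nucleus (SCN) genes examined here are Vip, Prok2, Rgs16, Six6, Lhx1 and Syt10, and they were read in 12 libraries of whole mouse hypothalamus. They were picked by symbol because they mark the SCN, each symbol matched 1 gene ID of the deposited count table, and together they are 6 of its 78334 gene IDs. The study asked how resveratrol (RSV) given by mouth alters the hypothalamic transcriptome of mice made obese with a high-fat diet (HFD).

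All mice were male C57BL/6, 8 weeks old at the start and kept under 12 h of light per day. The Ob + RSV group (3 libraries) received the HFD, with 60% of its energy from fat, and RSV, a plant polyphenol, at 2.25 mg/kg. The Ob + EAE group (2 libraries) received the HFD and aged garlic extract at 200 mg/kg, and the Ob + CUR group (1 library) the HFD and curcumin at 50 mg/kg. The Ob group (3 libraries) received the HFD with a vehicle, and the C group (3 libraries) standard chow with a vehicle. Gavage was daily for 28 days from 16 weeks of age in all 5 groups, so handling was shared by treated mice and controls. The labels give the HFD a length of 8 weeks in total but also start gavage after 8 weeks of it, so its full length at sampling is uncertain. The study's methods give 3 biological replicates per group for Ob + RSV, Ob and C. The labels do not say whether the Ob + EAE libraries come from separate mice. If they do not, the tests of Ob + EAE, which take their spread from all 12 libraries, count 1 mouse as 2 samples. The time of day at which the mice were killed is not given in the sources used here.

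The SCN is a small paired nucleus above the optic chiasm that holds the master circadian clock of mammals. Its ventral core neurons receive light signals from the retina and release vasoactive intestinal peptide, encoded by Vip, which keeps the clocks of neighbouring neurons in step through the receptor Vipr2. Prok2 encodes prokineticin 2, a secreted output signal of the SCN that acts through Prokr2, and Rgs16 a regulator of G protein signaling that accelerates GTP hydrolysis by inhibitory G proteins. In the rodent SCN, the RNAs of Vip, Prok2 and Rgs16 vary over the day, and since the time of killing is not given here, its part in the levels of these genes was not tested. Six6 and Lhx1 are homeodomain transcription factors, of which Six6 is needed for the SCN to form and Lhx1 for the neuropeptides of its mature neurons, and Syt10 encodes a synaptotagmin, a vesicle protein that senses calcium. Several members, among them Vip, Lhx1 and Syt10, are also expressed elsewhere in the brain.

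Vip and Prok2 are the secreted signals among the members and had their 5 lowest libraries in common, so the 250 bases upstream of their annotated starts are shown, on the strand of the gene, with matches to the searched motifs in capitals. The sequences are those of RefSeq on GRCm38.p6, where all 6 members have an entry. That of Vip lies at chr10:5638968-5639217 on the plus strand and that of Prok2 at chr6:99726393-99726642 on the minus strand.
Vip: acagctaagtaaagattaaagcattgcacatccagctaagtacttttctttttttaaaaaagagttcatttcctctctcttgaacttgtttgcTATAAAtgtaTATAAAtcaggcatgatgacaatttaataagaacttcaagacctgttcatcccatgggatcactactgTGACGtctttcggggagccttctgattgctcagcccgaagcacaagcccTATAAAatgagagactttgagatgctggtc
Prok2: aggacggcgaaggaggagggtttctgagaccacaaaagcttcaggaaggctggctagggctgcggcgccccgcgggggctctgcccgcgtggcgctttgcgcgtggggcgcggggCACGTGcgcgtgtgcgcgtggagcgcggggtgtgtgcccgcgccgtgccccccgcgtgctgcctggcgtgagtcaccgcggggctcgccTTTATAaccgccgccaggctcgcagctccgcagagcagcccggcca
The capitals in Vip mark TATAAA, the core of a TATA box, at 157, 147 and 30 bases before the start, and TGACG, a half-site of the cAMP response element, at 79 bases before it. Those in Prok2 mark CACGTG, the E-box recognised by the CLOCK and BMAL1 proteins, at 135 bases before the start, and TTTATA, which is TATAAA read on the other strand, at 46 bases before it. Both strands were searched for these letters and for CACGTT, TTATGTAA and TGACGTCA. Of the other members, Lhx1 and Syt10 held a TGACG, and Six6 and Rgs16 held none of the motifs. Among 32851 mouse promoters of 300 bases in the same table, CACGTG was found in 7.15%, TATAAA in 13.6% and TGACG in 20.8%. A match is a description of the sequence, and TGACG lies within TGACGTCA, so those counts overlap.

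Counted reads per library ran from 15655156 to 26284661. Levels are given as counts per 1000000 counted reads of a library (CPM), so 1 CPM stands for 16 to 26 reads. All 6 members were read in every library, with a lowest count of 9 reads for Syt10 and a highest of 1227 for Rgs16. Genes with at least 1 read numbered only 24450, 25979 and 26123 in Ob + RSV replicate 2, C replicate 2 and Ob replicate 1, against 28632 to 38081 in the other 9 libraries. The Ob + EAE libraries differed from each other by a chi-square of 6.51 per degree of freedom over genes, whereas the other 9 pairs within a group gave 22.4 to 73.2. All these values are above the sampling noise of about 1. Libraries made from 1 mouse could exceed it too, so the check cannot show whether the Ob + EAE libraries are separate mice. They were counted as 2 samples, but their spread is narrower than that between mice of the other groups. Ob + EAE replicates 1 and 2 gave 12.6 and 11.6 against Ob + CUR, also below every other pair within a group. The same held for C replicate 3 with Ob replicate 3 (10.1), C replicate 1 with Ob + EAE replicate 1 (18.1) and Ob replicate 3 with Ob + RSV replicate 3 (21.6). Over all groups, the median was 58.5 for pairs of different groups and 63.1 for pairs within a group, so by the median replicates were no closer than libraries of different groups. The sources used here do not say whether the Ob + EAE and Ob + CUR libraries were dissected, prepared or sequenced apart from the rest, and any such difference cannot be told apart from the treatment.

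The tissue label was checked against fixed marker lists. The neuronal markers Snap25, Syt1, Rbfox3, Slc32a1 and Slc17a6 summed to 1728 to 2757 CPM over the 12 libraries, and 5 pituitary markers to at most 13.8 CPM. Avp, the vasopressin gene of the SCN and of the paraventricular and supraoptic nuclei, stood between 249 and 1464 CPM in 11 libraries but at 8.42 CPM in Ob + CUR. That library also held 89.4 CPM of the 5 paraventricular and supraoptic markers (345 to 967 CPM elsewhere) and 104 CPM of the 4 mammillary markers (9.82 to 48.5 CPM elsewhere). The paraventricular and supraoptic markers did not all fall there. Oxt was at 4.04 CPM (202 CPM or more elsewhere), but Sim1 was at 24.3 CPM, its highest of the 12 libraries (up to 17.9 CPM elsewhere). The Ob + CUR library therefore differed from the others in markers of several hypothalamic regions. In bulk tissue, fewer SCN cells in a sample and less RNA per cell cannot be told apart.

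Per kilobase of exon, which allows levels to be compared between genes, the median over the 12 libraries was 13.1 CPM for Rgs16, 2.81 for Vip, 2.08 for Six6, 1.68 for Lhx1, 1.35 for Syt10 and 1.02 for Prok2. Rgs16 was the most abundant member on that scale. The highest CPM of a member was 22.3 times its lowest for Syt10, 17.8 times for Vip, 8.69 times for Prok2, 5.09 times for Rgs16, 4.27 times for Lhx1 and 3.44 times for Six6. The neuropeptides and Syt10 thus varied most between libraries, and the transcription factors least.

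**Figure D1:**
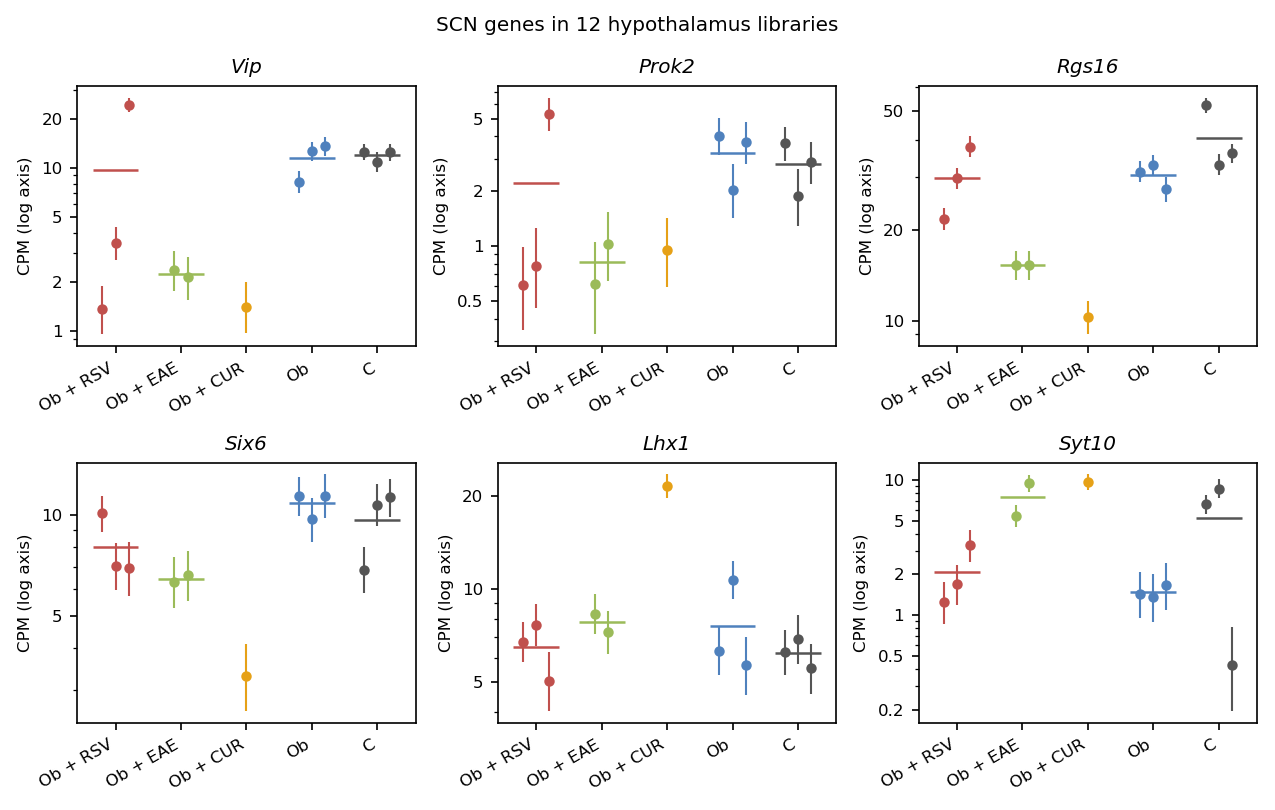
CPM of the 6 SCN genes on log axes in each library (points, replicates in order from the left), with 95% exact binomial intervals for counting error (vertical bars) and the arithmetic mean of each group with more than 1 library (horizontal lines). Vip and Prok2 are at their lowest in Ob + RSV replicates 1 and 2, both Ob + EAE libraries and Ob + CUR, while Ob + RSV replicate 3 is the highest of the 12 in both.

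Vip, the signal that couples SCN neurons, was at 1.37, 3.49 and 24.4 CPM in Ob + RSV, at 2.37 and 2.14 CPM in Ob + EAE, at 1.42 CPM in Ob + CUR, at 8.24, 12.7 and 13.5 CPM in Ob and at 12.6, 10.9 and 12.5 CPM in C. The Ob + RSV group held both the lowest and the highest library of the series, with 36 and 415 Vip reads. Their 95% exact binomial (Clopper-Pearson) intervals, 0.959 to 1.90 CPM and 22.1 to 26.9 CPM, are far apart, although such intervals cover counting error only. The 6 libraries of Ob and C lay within a narrow band, and both Ob + EAE libraries lay below all of them.

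Prok2, the SCN output signal, was at 0.609, 0.781 and 5.29 CPM in Ob + RSV, at 0.616 and 1.02 CPM in Ob + EAE, at 0.945 CPM in Ob + CUR, at 4.02, 2.04 and 3.70 CPM in Ob and at 3.66, 1.88 and 2.88 CPM in C. The 5 libraries with the least Prok2 were the same 5 as those with the least Vip, and the library with the most was again Ob + RSV replicate 3. Prok2 rests on few reads, from 13 in Ob + EAE replicate 1 to 90 in Ob + RSV replicate 3. Vip reads outnumbered Prok2 reads in all 12 libraries, by up to 6.22 times, in Ob replicate 2.

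**Figure D2:**
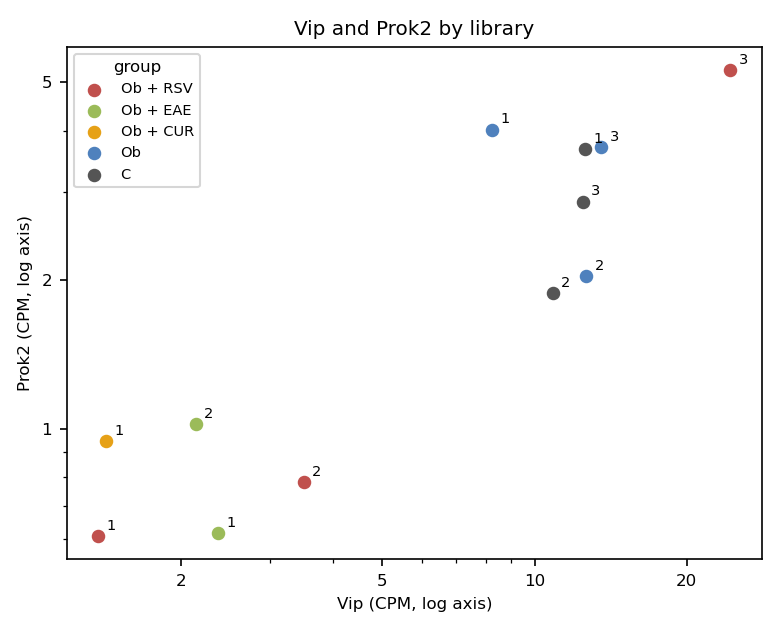
Prok2 against Vip, both in CPM on log axes, with 1 point per library, coloured by group and numbered by replicate. Ob + RSV replicates 1 and 2, both Ob + EAE libraries and Ob + CUR lie at the lower left (Vip up to 3.49 CPM, Prok2 up to 1.02 CPM) and the 3 Ob libraries, the 3 C libraries and Ob + RSV replicate 3 at the upper right.

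Rgs16, the G protein regulator, was at 21.8, 29.8 and 38.0 CPM in Ob + RSV, at 15.3 and 15.3 CPM in Ob + EAE, at 10.3 CPM in Ob + CUR, at 31.4, 33.0 and 27.5 CPM in Ob and at 52.3, 33.1 and 36.2 CPM in C. Its 5 lowest libraries shared 4 with the 5 lowest of Vip. Ob + EAE and Ob + CUR lay below all other libraries, and the highest Ob library (33.0 CPM) lay just below the lowest C library (33.1 CPM). After TMM scaling, edgeR's correction for library composition, Ob replicates 1 and 2 (33.3 and 34.2 CPM) lay above C replicate 2 (33.1 CPM), so Ob and C overlapped on that scale. Rgs16 overlaps the exons of Gm28513 on the opposite strand by 236 bases, but that gene had only 96 reads in the 12 libraries, against 6966 of Rgs16.

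Six6, the factor needed for the SCN to form, was at 10.1, 7.03 and 6.94 CPM in Ob + RSV, at 6.30 and 6.59 CPM in Ob + EAE, at 3.31 CPM in Ob + CUR, at 11.3, 9.68 and 11.4 CPM in Ob and at 6.86, 10.7 and 11.3 CPM in C. Ob + CUR was the lowest library and both Ob + EAE libraries came next, while C overlapped with Ob and with Ob + RSV. The strand setting of the counting is not given in the sources used here. Since 192 exon bases of Six6 are shared with 4930447C04Rik on the other strand, which had 5818 reads against 2046 of Six6, the Six6 counts are uncertain.

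Lhx1, the factor of mature SCN neurons, was at 6.77, 7.67 and 5.06 CPM in Ob + RSV, at 8.33 and 7.29 CPM in Ob + EAE, at 21.6 CPM in Ob + CUR, at 6.34, 10.7 and 5.69 CPM in Ob and at 6.26, 6.88 and 5.56 CPM in C. Unlike the 4 genes above, it was not low in Ob + EAE, and none of its 5 lowest libraries was among the 5 lowest of Vip or of Prok2. The 502 reads of Ob + CUR (95% exact binomial interval 19.7 to 23.5 CPM) were the most of any library. In the same library, the mammillary marker Foxb1 was at 57.2 CPM, against 3.00 to 24.2 CPM elsewhere, and the part of such regional differences in the level of Lhx1 was not tested.

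Syt10, the synaptotagmin, was at 1.26, 1.70 and 3.29 CPM in Ob + RSV, at 5.44 and 9.43 CPM in Ob + EAE, at 9.62 CPM in Ob + CUR, at 1.44, 1.38 and 1.66 CPM in Ob and at 6.60, 8.59 and 0.431 CPM in C. Its order differed from that of the peptides, with Ob + CUR the highest library and both Ob + EAE libraries above all of Ob. C held the lowest library of the series, replicate 3 with 9 reads, together with 2 of the 4 highest.

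The 6 genes did not vary as 1 group. Correlations of log2 CPM over the 12 libraries were computed for all 15 pairs, with p-values from 100000 permutations adjusted over the pairs. The Pearson r passed adjustment for 2 pairs, both with Vip. Vip and Prok2 gave an r of 0.91 (permutation p = 0.00026, adjusted p = 0.0039) and a Spearman rho of 0.82 (permutation p = 0.00161, adjusted p = 0.0241), and r was 0.89 without the 2 libraries farthest from the median of Vip. Vip and Rgs16 gave an r of 0.83 (permutation p = 0.00059, adjusted p = 0.00442) and a rho of 0.75 (permutation p = 0.00702, adjusted p = 0.0526), and r was 0.82 without those 2 libraries. Once group means were subtracted, which leaves 11 libraries, r was 0.85 for Vip with Prok2 (permutation adjusted p = 0.022) and 0.70 for Vip with Rgs16 (permutation adjusted p = 0.0625). The permutations moved the 11 values freely, although values of 1 group are tied by their mean, so these p-values may be too small. Vip spread most in Ob + RSV (1.37 to 24.4 CPM). Vip and Prok2 kept the same order of libraries in Ob + RSV and C, but not in Ob or Ob + EAE. In Vip and Prok2 the 5 low libraries lie apart from the other 7, so r also reflects which libraries were low.

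The other 13 pairs did not pass adjustment by r or by rho. Prok2 and Rgs16 gave an r of 0.71 (permutation p = 0.0103, adjusted p = 0.0514) and a rho of 0.64 (permutation p = 0.0287, adjusted p = 0.0782), and r was 0.67 without the 2 libraries farthest from the median of Prok2. Lhx1 ran against Six6, with an r of −0.71 (permutation p = 0.0259, adjusted p = 0.0646) and a rho of −0.54 (permutation p = 0.0744, adjusted p = 0.140), but r was −0.41 without the 2 libraries farthest from the median of Lhx1. Lhx1 also ran against Rgs16, with an r of −0.69 (permutation p = 0.0141, adjusted p = 0.0514) and a rho of −0.64 (permutation p = 0.0313, adjusted p = 0.0782), and r was −0.64 without those 2 libraries. Six6 and Syt10 gave an r of −0.65 (permutation p = 0.0171, adjusted p = 0.0514) and a rho of −0.69 (permutation p = 0.0176, adjusted p = 0.0662). Six6 and Rgs16 gave an r of 0.61 (permutation p = 0.0347, adjusted p = 0.0744) and a rho of 0.36 (permutation p = 0.256, adjusted p = 0.320), with 0.29 without the 2 farthest libraries and −0.90 once group means were subtracted, so the sign of this pair depended on differences between groups.

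The first comparison, Ob + EAE vs. Ob, asked how the members differed between obese mice with and without aged garlic extract. Vip and Rgs16 were lower in Ob + EAE. Vip averaged 2.25 ± 0.164 CPM in Ob + EAE (SD, n = 2) and 11.5 ± 2.84 CPM in Ob (SD, n = 3), with a log2 fold change (log2FC) of −2.41 (SE 0.66, 95% interval −3.75 to −1.06, edgeR adjusted p = 0.0454). Rgs16 averaged 15.3 ± 0.013 CPM in Ob + EAE and 30.6 ± 2.84 CPM in Ob, with a log2FC of −1.07 (SE 0.27, 95% interval −1.62 to −0.53, edgeR adjusted p = 0.0280). A gene was called where its adjusted p was below 0.05 and its log2FC was 1 or more in size, which held for 2 of 6 members, against 1.84% of the 36164 genes tested (276 higher and 389 lower in Ob + EAE).

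The other 4 members did not pass the test in Ob + EAE vs. Ob. Prok2 averaged 0.819 ± 0.287 CPM in Ob + EAE and 3.25 ± 1.07 CPM in Ob, with a log2FC of −2.05 (SE 0.81, edgeR adjusted p = 0.208), and Six6 had a log2FC of −0.81 (SE 0.35, edgeR adjusted p = 0.276). Syt10 went the other way, with 7.44 ± 2.82 CPM in Ob + EAE and 1.49 ± 0.149 CPM in Ob, a log2FC of 2.24 (SE 0.66, 95% interval 0.90 to 3.59) and an edgeR adjusted p of 0.0646. Lhx1 had a log2FC of −0.04 (SE 0.36, 95% interval −0.77 to 0.70). The libraries of Ob + EAE and Ob did not overlap for 5 of 6 members, all but Lhx1, but with 2 libraries against 3 they did not overlap for 38.7% of all genes tested either (24.9% higher and 13.7% lower in Ob + EAE). The median log2FC of the members was −0.94, against 0.05 for all genes tested.

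The calls in Ob + EAE vs. Ob were not stable. Vip kept its call without Ob replicate 3 (log2FC −2.31, edgeR adjusted p = 0.0176) but lost it without Ob replicate 1 (−2.54, adjusted p = 0.173 from edgeR), Ob replicate 2 (−2.27, edgeR adjusted p = 0.0710), Ob + EAE replicate 1 (−2.47, edgeR adjusted p = 0.116) or Ob + EAE replicate 2 (−2.30, edgeR adjusted p = 0.456). Rgs16 lost its call without the same 4 libraries, with log2FC values of −1.06 to −0.96 and edgeR adjusted p-values of 0.106 to 0.547. The number of genes called over the whole table was 18 without Ob replicate 1, 1172 without Ob replicate 3, 228 without Ob + EAE replicate 1 and 19 without Ob + EAE replicate 2, so each of these libraries decided much of that count. Without the 3 libraries with the fewest genes read, Vip was at −2.57 (edgeR adjusted p = 0.302) and Rgs16 at −1.02 (edgeR adjusted p = 0.298), and 1 gene was called over the whole table. The direction of Vip, Prok2, Rgs16, Six6 and Syt10 stayed the same in all 13 alternatives of this comparison.

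Regional and cell type markers were set beside this comparison. The neuronal list summed to 2216 to 2247 CPM in Ob + EAE and 1728 to 2109 CPM in Ob, with 0 of 5 genes called and a median log2FC of 0.35. The paraventricular and supraoptic list summed to 419 to 485 CPM in Ob + EAE and 548 to 967 CPM in Ob, with 0 of 5 called and a median log2FC of −0.21. Of these 5 genes, 2 were fitted higher in Ob + EAE and 3 lower. The peptide genes Oxt (−1.10, SE 0.33, edgeR adjusted p = 0.0752) and Trh (−0.73, SE 0.23, edgeR adjusted p = 0.101) had both Ob + EAE libraries below all Ob libraries. Sim1 went the other way, with a mean of 16.8 CPM in Ob + EAE and 10.5 CPM in Ob. Both Ob + EAE libraries lay above all Ob libraries in Sim1. The arcuate list, of which Kiss1 had too few reads to be tested, summed to 127 to 151 CPM in Ob + EAE and 202 to 509 CPM in Ob, with a median log2FC of −1.18 and 1 gene called, Cartpt (−1.65, SE 0.44, edgeR adjusted p = 0.0429). Tanycytes, the glia that line the third ventricle, had a median log2FC of −1.19 over 4 markers with 0 called. The Cartpt call was lost without Ob replicate 1 (edgeR adjusted p = 0.381) or Ob replicate 2 (edgeR adjusted p = 0.0592) and kept without Ob replicate 3 (edgeR adjusted p = 0.00163). Lower levels in Ob + EAE were thus also seen in markers of the arcuate nucleus and of tanycytes. All 3 ventromedial markers (median log2FC 0.18) and 4 of 5 cortex and hippocampus markers (median 0.89) were fitted higher. No neuronal marker was called in either direction, and the part of tissue makeup in the result was not tested.

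**Figure D3:**
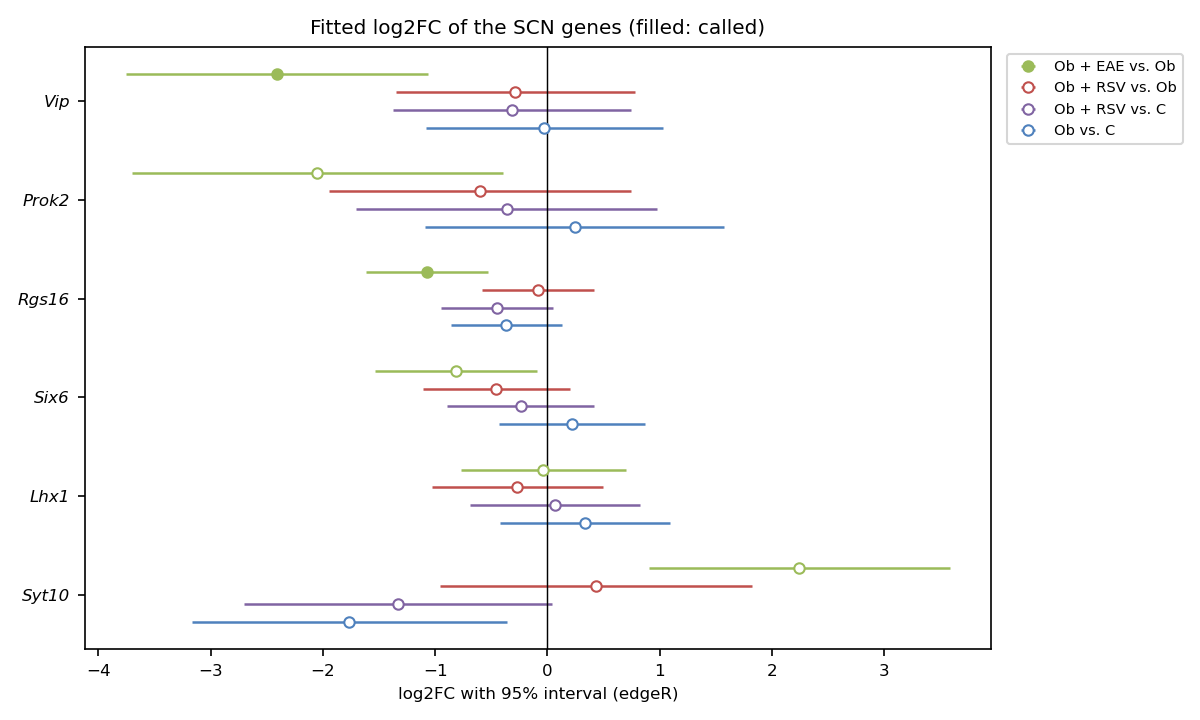
Fitted log2FC of the 6 SCN genes with 95% intervals from edgeR in 4 comparisons, in which filled points are called (adjusted p below 0.05, log2FC of 1 or more in size). The filled points are those of Vip (−2.41) and Rgs16 (−1.07) in Ob + EAE vs. Ob, and the widest intervals are those of Prok2 and Syt10.

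The second comparison, Ob + RSV vs. Ob, asked what RSV did to the members in obese mice. No member passed the test, all 6 had an edgeR adjusted p of 1, and 0% of the 33534 genes tested were called by edgeR. At an unadjusted p under 0.05 stood 1059 genes (3.16%) and 0 members, and DESeq2 on the same 6 libraries called 0 genes. The libraries of the groups overlapped for every member, whereas they did not overlap for 6.68% of all genes tested. Vip averaged 9.75 ± 12.7 CPM in Ob + RSV and 11.5 ± 2.84 CPM in Ob, and its log2FC of −0.29 (SE 0.52) had a 95% interval of −1.35 to 0.78, so differences in both directions lie within it.

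A single library decided the values of Vip and Prok2 in Ob + RSV. Without Ob + RSV replicate 3, the log2FC of Ob + RSV vs. Ob was −2.29 for Vip (SE 0.42, edgeR adjusted p = 0.103) and −2.25 for Prok2 (SE 0.73, edgeR adjusted p = 0.976), against −0.29 and −0.60 with it. Without Ob + RSV replicate 1, that of Vip was 0.23. Arcuate markers summed to 51.3 CPM in Ob + RSV replicate 3, the lowest of the 12 libraries, and to 452 and 213 CPM in Ob + RSV replicates 1 and 2, and ventromedial markers to 22.5 CPM, against 102 and 42.7 CPM. Replicate 3 thus stood apart from its group in other regional markers as well, and their part in the levels of Vip and Prok2 was not tested.

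The remaining members showed smaller differences in Ob + RSV vs. Ob. The log2FC was −0.46 (SE 0.32) for Six6, −0.27 (SE 0.37) for Lhx1, −0.08 (SE 0.24) for Rgs16 and 0.43 (SE 0.68) for Syt10. All 95% intervals included 0, and that of Rgs16, −0.58 to 0.42, was the narrowest of the 6.

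Set against C, the Ob + RSV libraries gave a log2FC of −0.31 (SE 0.52) for Vip, −0.36 (SE 0.66) for Prok2 and −0.45 (SE 0.24) for Rgs16. That of Syt10 was −1.33 (SE 0.67, 95% interval −2.70 to 0.04), with 2.08 ± 1.07 CPM in Ob + RSV and 5.21 ± 4.26 CPM in C (SD, n = 3 each). Six6 (−0.24) and Lhx1 (0.07) lay nearer to 0. The edgeR adjusted p was 1 for every member, and 0% of the genes tested were called by edgeR in Ob + RSV vs. C, while 962 genes (2.87%) stood at an unadjusted p under 0.05 and DESeq2 called 1 gene, which is not a member. Libraries of these groups overlapped for all 6 members, against 5.43% of all genes tested without overlap. Without Ob + RSV replicate 3, Vip was at −2.31 (SE 0.42, edgeR adjusted p = 0.0572) and Prok2 at −2.01 (SE 0.73, edgeR adjusted p = 0.763).

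The comparison Ob vs. C asked what the HFD did to the members. Vip averaged 11.5 ± 2.84 CPM in Ob and 12.0 ± 0.952 CPM in C (SD, n = 3 each), with a log2FC of −0.03 (SE 0.52, 95% interval −1.09 to 1.03). Prok2 had a log2FC of 0.24 (SE 0.65), Lhx1 of 0.34 (SE 0.37) and Six6 of 0.22 (SE 0.32). Neither Vip nor Prok2 differed between Ob and C beyond the spread of the libraries.

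Rgs16 and Syt10 were at lower values in Ob than in C without passing the test. Rgs16 averaged 30.6 ± 2.84 CPM in Ob and 40.5 ± 10.3 CPM in C, a log2FC of −0.36 (SE 0.24, edgeR adjusted p = 1), and it was the 1 member of 6 whose libraries did not overlap in CPM, by 33.0 against 33.1 CPM, as was the case for 7.64% of all genes tested (3.42% higher and 4.21% lower in Ob). On the TMM scale given above its libraries overlapped. The 5 thalamus markers were all fitted lower in Ob vs. C, with a median log2FC of −0.72. They summed highest in C replicate 1 (311 CPM), which also had the most Rgs16. The part of such tissue differences in the level of Rgs16 was not tested. Syt10 averaged 1.49 ± 0.149 CPM in Ob and 5.21 ± 4.26 CPM in C, a log2FC of −1.76 (SE 0.69, 95% interval −3.16 to −0.36, edgeR adjusted p = 1). C replicate 3 lay below all Ob libraries in Syt10 and the other C libraries lay above them. In Ob vs. C, edgeR called 0% of the genes tested and DESeq2 called 0 genes, while 922 genes (2.75%) stood at an unadjusted p under 0.05. The comparisons share their Ob or C libraries, so their values are not independent of each other.

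Other genes of the SCN were read from a list of 12. In Ob + EAE vs. Ob, 2 of 12 were called, both lower, against 1.84% of all genes tested, and the median log2FC was −0.83, against 0.05 for all genes tested. Of the 12, 9 were fitted lower and 3 higher, and the libraries of 7 did not overlap, against 38.7% of all genes tested. Adcyap1r1 was among those higher, at 454 and 481 CPM in Ob + EAE, against 299, 358 and 313 CPM in Ob. Avp had 310 and 249 CPM in Ob + EAE, against 809, 1464 and 566 CPM in Ob (log2FC −1.84, SE 0.37, edgeR adjusted p = 0.00948), and Cck, the gene of cholecystokinin, had 19.8 and 12.4 CPM in Ob + EAE, against 77.5, 29.9 and 20.6 CPM in Ob (95% interval of the log2FC −2.34 to −0.66, edgeR adjusted p = 0.0454). Both lay below all Ob libraries, Cck only narrowly (19.8 against 20.6 CPM). With DESeq2 on the libraries of the 2 groups, Avp kept its call (DESeq2 adjusted p = 3.82e-05) and Cck lost it (DESeq2 adjusted p = 0.188). Avp is also expressed in the paraventricular and supraoptic nuclei, of whose markers Oxt and Trh were lower and Sim1 higher in Ob + EAE, as given above. These calls too rested on single libraries. Without Ob replicate 1, Avp was at −1.90 (edgeR adjusted p = 0.0632) and Cck at −0.67 (edgeR adjusted p = 0.659), and without Ob + EAE replicate 2 they were at −1.66 (edgeR adjusted p = 0.241) and −1.17 (edgeR adjusted p = 0.702), while both kept their calls without any 1 of the other 3 libraries. Nms, which encodes neuromedin S, a peptide of SCN neurons, was at 0.331 and 0.325 CPM in Ob + EAE, against 2.73, 2.75 and 2.49 CPM in Ob (−3.07, SE 0.89, edgeR adjusted p = 0.0618). Nms, which was chosen after its values were seen, was also low in Ob + RSV replicate 1 (0.342 CPM) and Ob + CUR (0.129 CPM), as Vip was, but not in Ob + RSV replicate 2 (5.01 CPM), where Vip was low.

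The receptors of the 2 secreted members were on the same list. Vipr2, the receptor of Vip, was at 3.08, 7.86 and 7.23 CPM in Ob + RSV, at 4.17 and 4.55 CPM in Ob + EAE, at 9.15 CPM in Ob + CUR, at 5.77, 9.13 and 7.22 CPM in Ob and at 10.8, 10.4 and 7.24 CPM in C. Prokr2, the receptor of Prok2, ranged from 2.85 CPM in Ob + RSV replicate 1 to 9.88 CPM in Ob + RSV replicate 3. Neither receptor was called in any comparison. Ob + CUR, among the lowest libraries in both ligands, was not low in either receptor, with 8.55 CPM of Prokr2.

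None of the 12 genes was called in the other 3 comparisons. By the size of p, Avp, Grp, Cck and Rorb came first in Ob vs. C, led by Avp (log2FC 0.67, SE 0.31, edgeR adjusted p = 1), with Grp at 0.56 (SE 0.45), Cck at −0.41 (SE 0.34) and Rorb at −0.24 (SE 0.23). In Ob + RSV vs. Ob, Rasd1, a Ras-like protein induced by light in the SCN, had a log2FC of −1.17 (SE 0.38, edgeR adjusted p = 1) and Avp one of −0.86 (SE 0.31, edgeR adjusted p = 1). The libraries of Ob and C did not overlap for 2 of 12, Nms (higher in Ob) and Rorb (lower in Ob), against 7.64% of all genes tested. The median log2FC of the list was −0.13 for Ob vs. C, −0.15 for Ob + RSV vs. C and −0.08 for Ob + RSV vs. Ob.

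Clock genes, which most cells of the body express, were read from a list of 18. None was called in any of the 4 comparisons, and 4 of 18 stood at an unadjusted p under 0.05 in Ob + EAE vs. Ob, against 13.4% of all genes tested. These were Clock (log2FC 0.63, SE 0.23), Rora (0.69, SE 0.29), Per1 (−0.62, SE 0.26) and Ciart (−0.78, SE 0.31). The median over the list was 0.08 in that comparison, close to the 0.05 of all genes tested. In Ob vs. C, 9 of 18 clock genes were fitted higher and 9 lower, with a median log2FC of −0.02, and 2 stood at an unadjusted p under 0.05. Those with the smallest p were Ciart (log2FC 0.84, SE 0.29), Rora (−0.72, SE 0.28), Dbp (0.57, SE 0.31) and Hlf (−0.42, SE 0.22), all with an edgeR adjusted p of 1. The repressor Ciart was at 24.3, 17.2 and 13.2 CPM in Ob and 10.8, 9.22 and 11.6 CPM in C, with every Ob library above every C library, as was so for 3.42% of all genes tested. Rora, an activator of clock gene transcription that the thalamus also expresses, averaged 33.1 ± 9.80 CPM in Ob and 56.0 ± 27.8 CPM in C (SD, n = 3 each), and the groups overlapped.

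**Figure D4:**
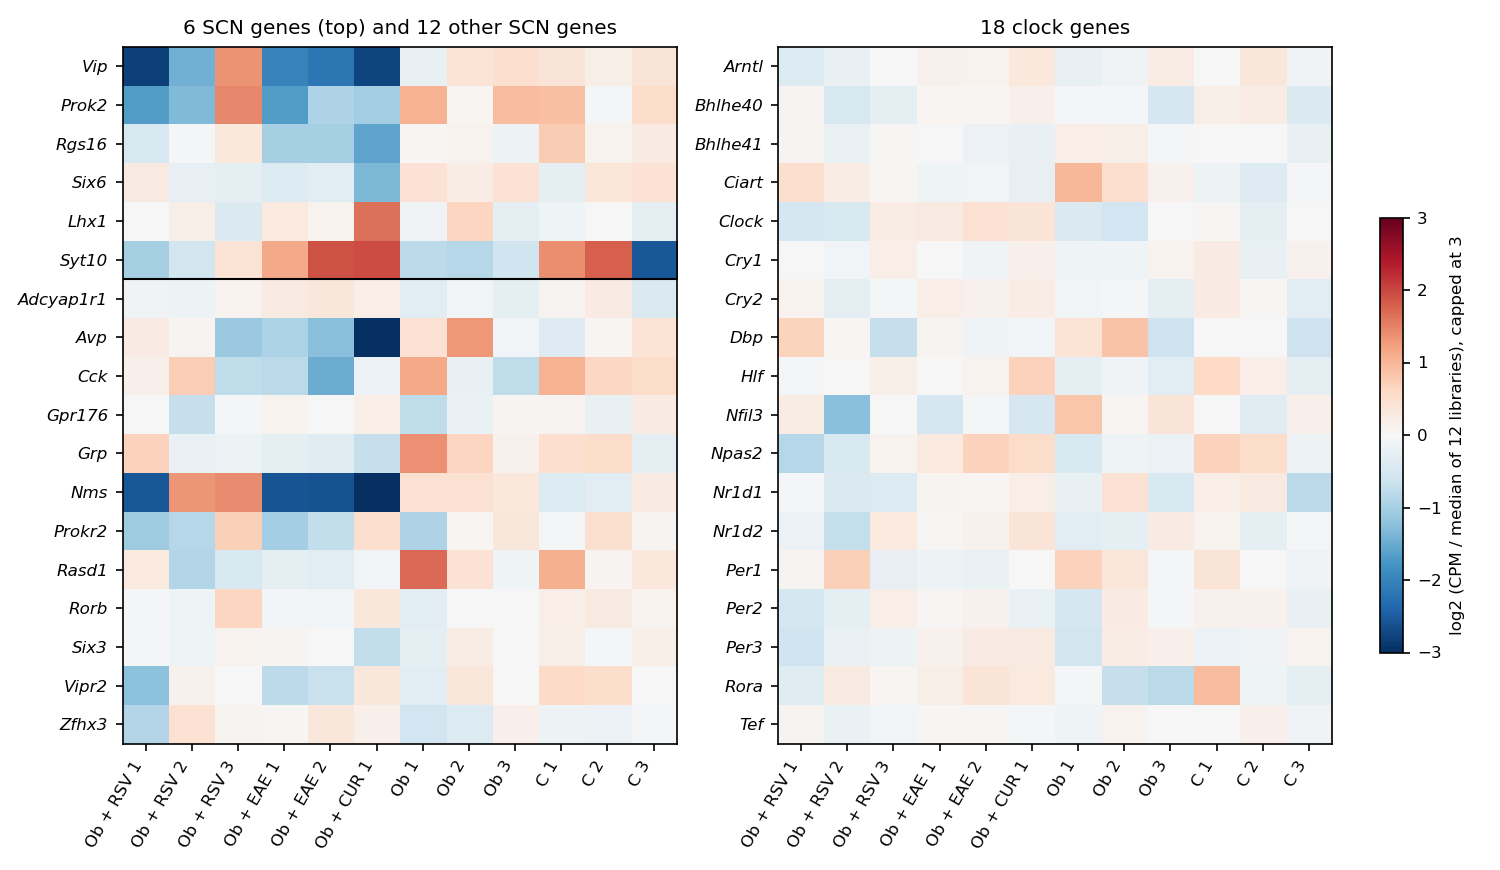
CPM of the 6 SCN genes and 12 other SCN genes (left) and of 18 clock genes (right) in each library, as log2 of the ratio to the gene's median over the 12 libraries, with the colour capped at 3 in either direction. Vip, Nms and Avp and, in C replicate 3, Syt10 have the deepest blue cells, while the clock genes stay closer to their medians.

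Genes with a pattern like that of the members were sought among 29107 genes that passed edgeR's expression filter over the 12 libraries, by the Pearson r of log2 CPM, as a description of these libraries. The mean of the 6 members was followed most closely by Fosl2 (r = 0.88), Rbp7 (0.87), Tctex1d1 (0.85), Socs2 (0.82) and Fhit (0.82), of which Rbp7 reached only 0.512 CPM and Tctex1d1 1.48 CPM. Outside the members, the gene most like each of them was Gm45869 for Vip (r = 0.86), Creb3l1 for Prok2 (0.88), Fcgr3 for Rgs16 (0.87), Gm14270 for Six6 (0.92), Slc16a10 for Lhx1 (0.90) and Snx29 for Syt10 (0.97). Each member had a different closest gene, and Snx29, a sorting nexin at 3.11 to 16.6 CPM, was the closest of all.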

How the data were processed

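Hypothalamic RNA was extracted with TRIzol, poly(A) libraries were made with a stranded kit, and read pairs were sequenced by Novogene. The authors aligned the reads with HISAT2 and deposited whole-number, unscaled counts per gene from featureCounts, and the submitters' processing notes name FastQC, featureCounts and GRCm39. Neither the gene annotation used, nor how strand and multi-mapped reads were treated in counting, is stated in the sources used here. Sampling noise limits the precision of members with few reads, since depth was 15655156 to 26284661 counted reads per library.

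Symbols came from a reference table by Ensembl ID, which named 51486 of 78334 IDs, and exon lengths and overlaps from GENCODE vM21, which is on another build than the counts. CPM are counts per 1000000 counted reads of a library. Genes with 10 or more reads summed over the fitted libraries were tested by the quasi-likelihood F test of edgeR 4.0.16 under R 4.3.3 after TMM scaling, with group as the factor, in a fit of the 9 libraries of Ob + RSV, Ob and C and, for Ob + EAE, a fit of all 12 libraries with 7 residual degrees of freedom. P-values were adjusted over all genes tested by Benjamini-Hochberg, with the thresholds of the study. Ob + CUR, a single library, got values and no test. Log2 CPM for correlations used a prior count of 2. The procedure was also run on simulated counts. These were drawn independently for each library, so that run does not bear on how far single libraries decided the calls. Python 3.11.15 with pandas 2.3.3 and matplotlib 3.10.9 served for tables and plots.

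The members, the 16 marker lists (93 genes, all matched) and the alternatives were chosen with earlier results of these data known. The rule for named genes took all 6 members, up to 4 genes of the SCN and clock lists with the smallest p in Ob vs. C, the 5 genes most like the mean of the members and the gene most like each member, while genes named for Ob + EAE or Ob + RSV were chosen after their values were seen. Alternatives were RLE and upper quartile scaling, filterByExpr, no filter beyond 1 read, DESeq2 1.42.0 or edgeR on the libraries of the 2 groups, a replicate block, no minimum on log2FC, leaving out each library, and leaving out the 3 libraries with the fewest genes read. Replicate numbers shared by the groups were checked as pairs. Deviations from group means of same-numbered libraries correlated at −0.03 to 0.32 over the 4 comparisons, not above 0.1 in every pair of any of them, so the numbers were not treated as pairs. In Ob + RSV vs. Ob, same-numbered libraries correlated at 0.013 to 0.32 and other-numbered ones at −0.29 to 0.011. A pairing in that comparison is therefore not settled by the limit of 0.1.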

Additional observations from a re-analysis of the deposited data

How the results depend on the processing

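Of the alternatives of Ob + EAE vs. Ob, Vip was past the threshold in 5 of 13, Rgs16 in 7, Syt10 in 5 and Prok2 in 1. The smallest adjusted p over these alternatives, from edgeR or DESeq2, was 3.72e-09 for Vip and 0.00031 for Rgs16, so the settings disagreed widely. With RLE scaling Vip was at −2.41 (edgeR adjusted p = 0.0511), with upper quartile scaling at −2.38 (0.0535), with filterByExpr at −2.40 (0.117) and without the 3 libraries with the fewest genes read at −2.57 (0.302). Rgs16 was at −1.07 (0.0712) with filterByExpr and −1.02 (0.298) without those 3 libraries. Syt10 passed without a filter (2.26, adjusted p = 0.000811), with edgeR on the 2 groups (2.26, 0.0243) and with DESeq2 (2.26, 4.14e-05), and Prok2 with DESeq2 (−2.05, 0.00622). Genes called in Ob + EAE vs. Ob numbered 77 with filterByExpr, 1031 without a filter, 1252 with DESeq2 and 1 without the 3 libraries. Without a filter, 35, 11 and 32 genes were called in Ob vs. C, Ob + RSV vs. Ob and Ob + RSV vs. C, none of them a member, and DESeq2 called 1 in Ob + RSV vs. C.

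Replicate numbers shared by the groups did not pass as pairs. With a replicate block, 50, 10, 35 and 1417 genes were called in Ob vs. C, Ob + RSV vs. Ob, Ob + RSV vs. C and Ob + EAE vs. Ob, and Syt10 was at 2.07 (edgeR adjusted p = 0.00193) in the last.

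Leaving out each library in turn, genes called ranged from 0 to 11 in Ob vs. C, 0 to 2 in Ob + RSV vs. Ob, 0 to 3 in Ob + RSV vs. C and 18 to 1172 in Ob + EAE vs. Ob. In Ob + EAE vs. Ob, Vip ranged from −2.54 to −2.27, Rgs16 from −1.17 to −0.96, Syt10 from 1.83 to 2.60 and Lhx1 from −0.23 to 0.36. In Ob + RSV vs. Ob, Vip ranged from −2.29 to 0.23, Lhx1 from −0.46 to 0.090, Rgs16 from −0.29 to 0.084 and Syt10 from −0.049 to 0.68. In Ob + RSV vs. C, Vip ranged from −2.31 to 0.21, Prok2 from −2.01 to 0.088 and Lhx1 from −0.018 to 0.22, and in Ob vs. C, Vip from −0.13 to 0.15 and Lhx1 from −0.022 to 0.53. Without the 3 libraries, signs also turned for Vip (0.069) and Prok2 (−0.21) in Ob vs. C and Prok2 (0.011) in Ob + RSV vs. Ob, none past the threshold. The correlation of Six6 and Rgs16 turned to −0.90 after group means were subtracted. The cause of these changes was not tested, beyond the fewer or other libraries and genes each fit used. Low depth limits Prok2 (13 to 90 reads per library) and Syt10 (9 to 224 reads per library).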
